A study of Homo sapiens with 12 samples.

Results

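The genes described here encode the enzymes, regulators and receptors of ceramide and sphingosine 1-phosphate (S1P) metabolism outside the lysosome. They came from a list of 45 named genes defined by function, and all 45 were matched to 1 of the 60107 Ensembl gene identifiers of the count table. Messenger RNA was quantified by 3′ sequencing (QuantSeq FWD) in 12 libraries of human U251 glioblastoma cells, an established line, labeled U251P or U251T. In each of the 2 lines, 3 libraries came from cells given DMSO as the vehicle and 3 from cells given carmofur, which inhibits acid ceramidase, the lysosomal ceramidase encoded by ASAH1. The dose was 5 µM in the study's methods. All 4 groups were serum starved for 16 h and then kept for 24 h in full medium with 10% FBS, EGF and FGF. The FBS medium listed in the paper's methods holds neither EGF nor FGF. The labels place the drug in the last 24 h and the methods place it in the starvation as well. The labels do not say how U251P and U251T differ. The paper's methods give 3 biological replicates for all of its experiments, without describing the cultures behind these libraries. The p-values measure the spread between these libraries, and how far it is technical is not known.

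Ceramide is made in the endoplasmic reticulum. Serine palmitoyltransferase condenses serine with a fatty acyl-CoA, the product is reduced, a ceramide synthase adds a further acyl chain, and a desaturase completes the molecule. Ceramide is then turned into sphingomyelin, glucosylceramide or ceramide 1-phosphate, or is cut by ceramidases to sphingosine. Sphingosine kinases convert sphingosine to S1P, which is degraded by a lyase, dephosphorylated by phosphatases, or exported to act on G protein-coupled S1P receptors. The ratio of ceramide to S1P is commonly called the sphingolipid rheostat, since ceramide is linked to growth arrest and cell death and S1P to survival and migration. Several steps have alternative isoforms that differ in acyl chain preference or location. The comparison therefore asked which isoforms U251P transcribed and whether carmofur altered their mRNA.

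Total counts were 3295045 to 6350873 in U251P and 383633 to 2817379 in U251T. The U251T libraries stood apart from those of U251P, and in both lines some markers went against a glioma label. Mitochondrial transcripts were 0.354% to 0.880% of counts in U251T and 19.5% to 26.2% in U251P, and processed pseudogenes were 8.51% to 9.41% and 0.144% to 0.169%. Of 12 glial and glioblastoma markers, 8 had over 3 counts in the U251P vehicle libraries and 6 in those of U251T. VIM was abundant in both lines. GFAP had 0, 1 and 0 counts in the U251P vehicle libraries and 102, 154 and 47 in those of U251T. SOX2 had 813, 322 and 636 counts in U251P vehicle and 0 in each U251T vehicle library, and NES had 1904, 1512 and 2051 against 2, 1 and 0. OLIG2 and AQP4 were at 0 in all 12 libraries. The summed level of 6 fibroblast markers was 1957 to 2799 CPM (counts scaled to the library total) in U251T and 18.8 to 23.5 in U251P. In vehicle, the 12 glial and glioblastoma markers summed to 11815 to 14320 CPM in U251T and 4164 to 5148 in U251P. VIM alone was at 13534, 11009 and 13426 CPM in U251T vehicle and 2950, 3252 and 2516 in U251P vehicle. Epithelial markers summed to 279.7 to 355 CPM in U251P. The part of these differences in the results was not tested. The effect of carmofur was fitted in each line on its own, and fits that join the lines are named as such.

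In U251P, 33 of the 45 genes reached at least 1 CPM in each of the 3 vehicle libraries, and the same number did so in the carmofur libraries. Their median level was 25.3 CPM, beside 23.0 CPM for the 11497 genes of the whole table that reached this level. Together the 45 genes held 0.0911% to 0.106% of the counts of a library. Of the other 12 genes, 5 (DEGS2, ACER1, ASAH2, SMPD3 and S1PR2) had 0 counts in all 6 U251P libraries, where 3 counts would be 0.0998 CPM. The remaining 7 had at most 29 counts in all 6 libraries together. Values below are CPM scaled by the TMM method, which corrects for differences in library composition. QuantSeq yields 1 fragment per transcript, near its 3′ end, and these levels do not scale with transcript length. How efficiently each 3′ end was captured is unknown, and small differences between genes cannot be read as differences in transcript number.

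**Figure D1:**
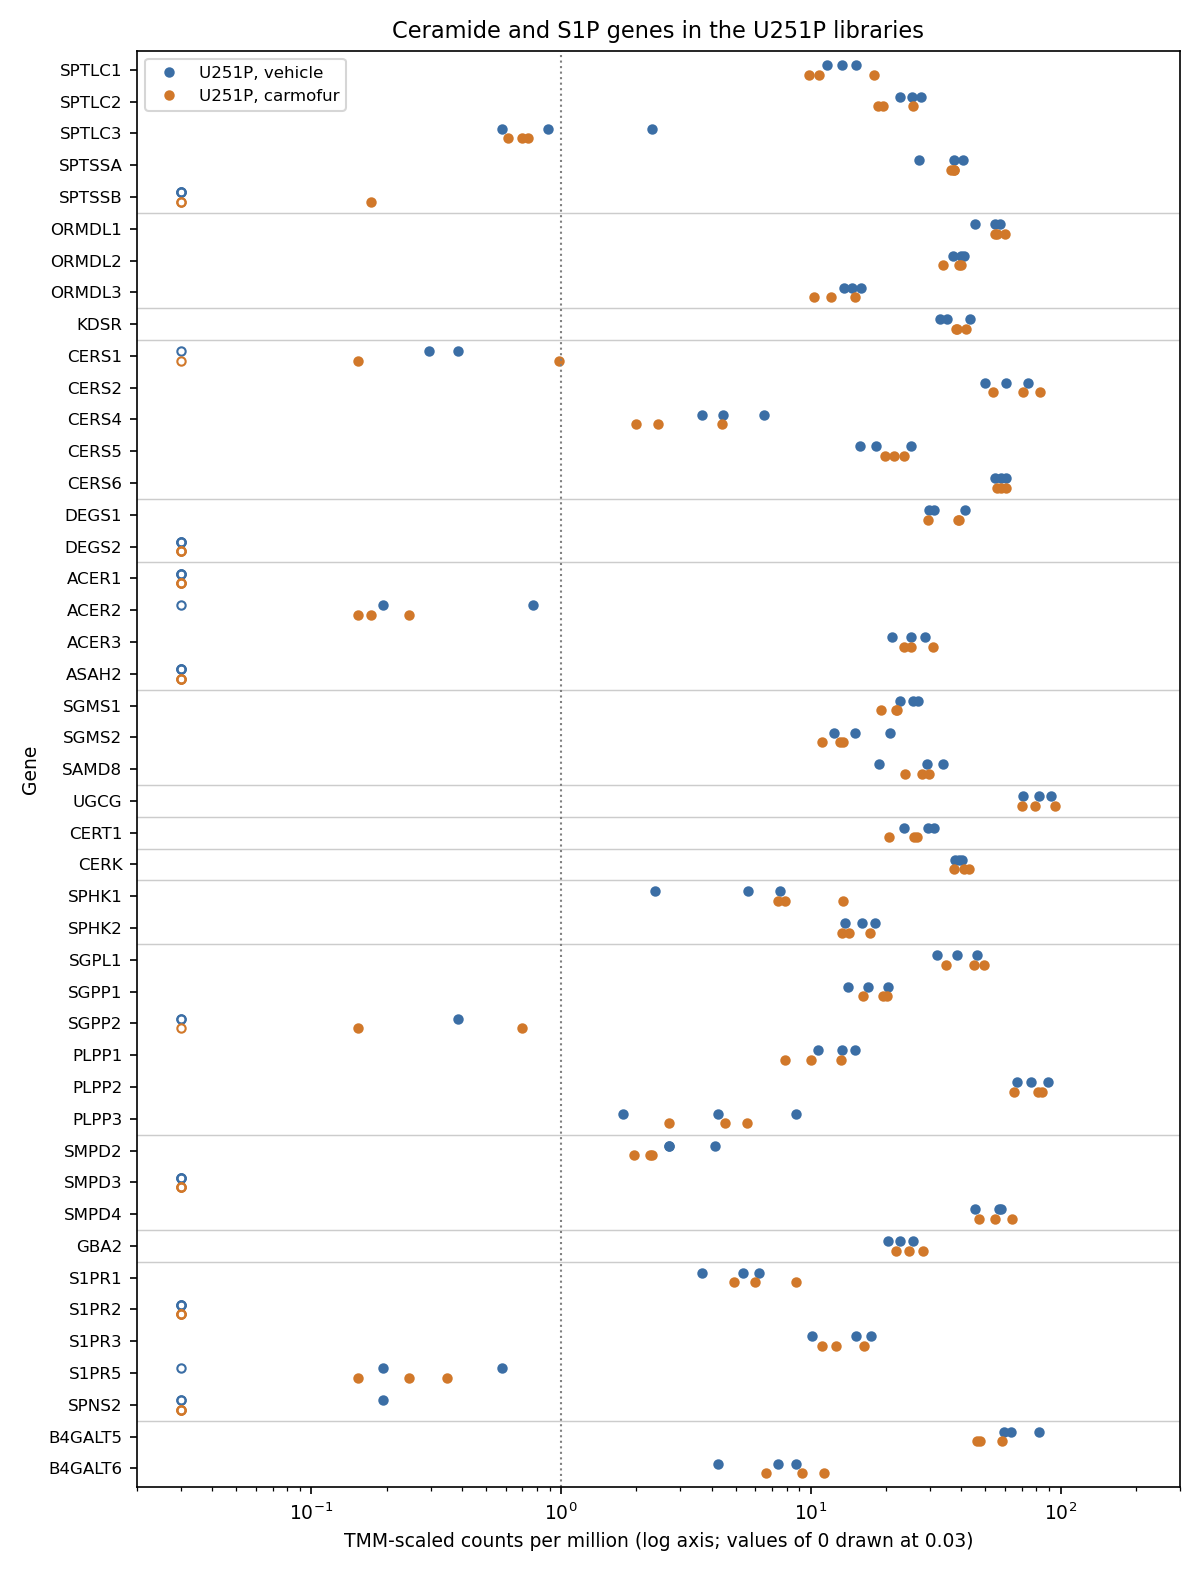
TMM-scaled CPM (log axis) of the 45 genes in the 3 vehicle (blue) and 3 carmofur (orange) libraries of U251P, with open circles for values of 0. Grey lines separate the roles and the dotted line marks 1 CPM. The points of both treatments lie over each other for most genes, and in several families 1 gene holds nearly all counts.

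For several enzymes a single isoform held nearly all counts. Windows of 250 bases before a RefSeq start (GRCh38.p14) are given for genes that did and did not pass the expression filter. They are written 5′ to 3′ on the gene's strand with each CG dinucleotide in capitals. The genes are SPTSSA and SPTSSB (small subunits of serine palmitoyltransferase), ACER3 and ACER1 (alkaline ceramidases), and DEGS2 (a dihydroceramide desaturase). The windows lie wholly within the GENCODE gene spans for SPTSSB and DEGS2 and partly within them for the others. SPTSSA is at chr14:34462241-34462490, minus strand, SPTSSB at chr3:161371518-161371767, minus strand, ACER3 at chr11:76860668-76860917, plus strand, ACER1 at chr19:6333613-6333862, minus strand, and DEGS2 at chr14:100159646-100159895, minus strand.
SPTSSA: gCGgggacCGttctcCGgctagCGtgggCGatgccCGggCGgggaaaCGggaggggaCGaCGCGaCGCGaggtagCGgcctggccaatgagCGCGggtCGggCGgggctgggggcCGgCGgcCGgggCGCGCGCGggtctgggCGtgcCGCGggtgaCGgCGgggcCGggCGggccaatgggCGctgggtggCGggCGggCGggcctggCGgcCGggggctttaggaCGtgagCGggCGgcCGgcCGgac
SPTSSB: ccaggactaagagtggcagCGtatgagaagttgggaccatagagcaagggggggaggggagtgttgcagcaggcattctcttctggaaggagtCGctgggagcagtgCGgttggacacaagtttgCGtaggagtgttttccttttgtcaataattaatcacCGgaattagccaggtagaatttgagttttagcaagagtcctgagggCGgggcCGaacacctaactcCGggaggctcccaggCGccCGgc
ACER3: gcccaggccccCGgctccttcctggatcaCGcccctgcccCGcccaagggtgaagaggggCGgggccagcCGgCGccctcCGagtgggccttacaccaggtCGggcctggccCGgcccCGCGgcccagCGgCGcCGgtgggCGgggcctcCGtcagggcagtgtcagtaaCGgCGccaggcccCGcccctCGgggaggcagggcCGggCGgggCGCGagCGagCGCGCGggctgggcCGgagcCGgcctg
ACER1: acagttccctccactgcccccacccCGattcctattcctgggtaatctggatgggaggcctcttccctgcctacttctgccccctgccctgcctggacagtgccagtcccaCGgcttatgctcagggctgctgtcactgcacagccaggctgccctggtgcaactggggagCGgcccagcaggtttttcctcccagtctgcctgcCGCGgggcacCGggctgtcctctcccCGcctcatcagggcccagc
DEGS2: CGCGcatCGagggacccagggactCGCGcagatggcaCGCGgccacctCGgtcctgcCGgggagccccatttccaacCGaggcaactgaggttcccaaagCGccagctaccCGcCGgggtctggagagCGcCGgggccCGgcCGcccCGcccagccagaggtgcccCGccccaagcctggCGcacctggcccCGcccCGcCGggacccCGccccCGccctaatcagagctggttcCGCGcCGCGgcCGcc

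The 2 genes that passed held 43 (SPTSSA) and 30 (ACER3) CG dinucleotides, and their relatives with 1 and 0 counts in U251P held 10 (SPTSSB) and 7 (ACER1). DEGS2 had 30 and no count. A RefSeq window was found for 36 of the 45 genes. Counting the letters CG (the same on both strands) and taking the highest count over a gene's starts, 23 of 27 genes that passed the expression filter held at least 20, and so did 6 of 9 that did not. The share was 36.0% of all 27305 genes with such a window, 67.6% of 8395 genes with at least 100 counts in the U251P libraries and 16.8% of 5689 genes with 0 counts. Most members held a CG-rich window whether they passed the filter or not, and the match is a description of these windows only.

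Serine palmitoyltransferase, the first and rate-limiting enzyme, was represented by SPTLC1, the subunit common to all forms, with SPTLC2 and SPTSSA. In vehicle, SPTLC1 was at 11.6, 13.3 and 15.1 CPM, SPTLC2 at 25.3, 22.8 and 27.5, and SPTSSA at 40.7, 37.3 and 27.1. SPTLC2 held 95.3% ± 3.27 (SD, n = 3) of the counts of SPTLC2 and SPTLC3, the alternative catalytic subunit, which had 12, 3 and 3 counts. SPTSSB had 1 count in 6 libraries. SPTSSA overlaps EGLN3 on the same strand, so that its counts could include reads of that gene. With carmofur, SPTLC2 was at 25.7, 18.6 and 19.4 CPM, overlapping the vehicle libraries, and differed by -0.24 on the log2 scale (SE 0.170). SPTLC1 and SPTSSA also overlapped and differed by -0.04 (SE 0.240) and 0.09 (SE 0.157).

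The ORMDL proteins, which restrain serine palmitoyltransferase, were all detected. In vehicle, ORMDL1 was at 57.4, 54.8 and 45.5 CPM, ORMDL2 at 39.8, 40.9 and 37.0, and ORMDL3 at 14.7, 13.6 and 15.9, an order without overlap between neighbors. Their shares of the family counts were 49.2% ± 2.64, 36.9% ± 1.11 and 13.9% ± 1.96 (SD, n = 3). Carmofur libraries overlapped those of vehicle for each of them, with differences of 0.11 (SE 0.126), -0.06 (SE 0.134) and -0.24 (SE 0.203) on the log2 scale. KDSR, which reduces the product of serine palmitoyltransferase, was at 32.8, 43.2 and 35.0 CPM in vehicle and 41.8, 38.3 and 38.6 with carmofur.

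Among ceramide synthases, CERS2, which uses very long acyl chains, and CERS6, which makes mainly C16 ceramide, were the most abundant. In vehicle, CERS2 was at 60.4, 73.7 and 49.9 CPM and CERS6 at 57.5, 60.7 and 54.8, and their order could not be told apart from the spread. They held 42.4% ± 5.00 and 40.2% ± 1.31 (SD, n = 3) of the family counts. CERS5, another C16 enzyme, was at 18.2, 15.7 and 25.2 CPM, CERS4 at 3.67, 6.51 and 4.45, and the neuronal form CERS1 had 0, 1 and 2 counts. CERS1 shares its 3′ end with GDF1 on the same strand. GDF1 had 0 counts, and reads from the shared end could have been dropped from both genes. CERS2, CERS5 and CERS6 overlapped between treatments, and their differences were 0.19 (SE 0.163), 0.12 (SE 0.187) and 0.01 (SE 0.115). For CERS6 the 95% interval, -0.24 to 0.25, was the narrowest of the family.

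CERS4 (ENSG00000090661, GRCh38 chromosome 19, 8206736 to 8262421) had the lowest fold change of the members tested. The vehicle libraries were at 3.67, 6.51 and 4.45 CPM and the carmofur libraries at 2.00, 2.43 and 4.42, a difference of -0.74 on the log2 scale (SE 0.396, 95% interval -1.59 to 0.10; edgeR adjusted p = 0.999). Carmofur replicate 3 lay among the vehicle libraries, and these values rest on 13 to 23 counts a library. The final step, desaturation of dihydroceramide, was served by DEGS1 at 41.3, 31.1 and 29.8 CPM in vehicle and 39.2, 38.8 and 29.5 with carmofur. DEGS2, which can also hydroxylate, had no count.

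Of the ceramidases outside the lysosome, ACER3, the alkaline form of the endoplasmic reticulum and Golgi, held 98.8% ± 1.34 (SD, n = 3) of the counts. It was at 21.0, 25.2 and 28.6 CPM in vehicle and 25.2, 30.9 and 23.6 with carmofur, with overlap. ACER2 of the Golgi had 1, 0 and 4 counts in vehicle and 1 in each carmofur library. ACER1, an epidermal form, and ASAH2, the neutral ceramidase, were at 0. ASAH2B, a near-copy of ASAH2, had 42, 34 and 26 counts in vehicle and 36, 33 and 31 with carmofur, and reads of these copies may not be assigned with certainty. ASAH1, the target of carmofur and no member of the list, was at 40.6, 36.4 and 31.2 CPM in vehicle and 45.2, 33.4 and 36.3 with carmofur, a difference of 0.09 (SE 0.156) with overlapping groups. Enzyme activity is not measured by these counts.

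Sphingomyelin is made by SGMS1 in the Golgi and by SGMS2, also at the plasma membrane, whereas SAMD8 makes the related ceramide phosphoethanolamine. In vehicle, SGMS1 was at 22.8, 26.9 and 25.5 CPM, SGMS2 at 15.1, 20.7 and 12.4, and SAMD8 at 29.2, 33.7 and 18.8. SGMS1 and SAMD8 overlapped in level, and SGMS2 lay below SGMS1 in every library. CERT1, which carries ceramide from the endoplasmic reticulum to the Golgi, was at 29.4, 31.1 and 23.6 CPM in vehicle and 26.6, 20.5 and 25.8 with carmofur. With carmofur, SGMS1 was at 22.1, 19.1 and 21.9, and each of these libraries was below each vehicle library by a narrow margin, with a difference of -0.25 (SE 0.156, 95% interval -0.58 to 0.08). SGMS2 and CERT1 overlapped and differed by -0.33 (SE 0.215) and -0.20 (SE 0.166), and SAMD8 by 0.02 (SE 0.193).

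Glucosylceramide synthase, UGCG, which opens the path to most glycosphingolipids, had the highest mean of the 45 genes, at 91.5, 82.3 and 70.8 CPM in vehicle, overlapping PLPP2 and B4GALT5. The carmofur libraries were at 95.2, 78.8 and 69.7, with a difference of 0.00 (SE 0.133, 95% interval -0.28 to 0.28). Lactosylceramide synthase came mainly from B4GALT5, with 90.9% ± 3.35 (SD, n = 3) of the counts of B4GALT5 and B4GALT6. B4GALT5 (ENSG00000158470, GRCh38 chromosome 20, 49632945 to 49713878) was at 59.1, 82.3 and 63.3 CPM in vehicle and at 47.4, 46.4 and 58.2 with carmofur. All carmofur libraries were below all vehicle libraries, although carmofur replicate 3 was close to vehicle replicate 1. The difference was -0.43 (SE 0.144, 95% interval -0.73 to -0.12; edgeR adjusted p = 0.999). B4GALT6 was at 8.69, 7.40 and 4.26 CPM in vehicle and 9.23, 11.3 and 6.63 with carmofur, overlapping, with a difference of 0.44 (SE 0.298). GBA2, the glucosylceramidase outside the lysosome, was at 25.7, 20.4 and 22.8 CPM in vehicle and 24.8, 28.0 and 21.9 with carmofur.

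Sphingomyelin breakdown outside the lysosome was represented by SMPD4, with 94.2% ± 2.23 (SD, n = 3) of the family counts, at 57.9, 45.3 and 56.5 CPM in vehicle and 63.7, 47.1 and 54.8 with carmofur. SMPD3, the best-studied neutral sphingomyelinase, had no count. SMPD2 had 14 counts in each vehicle library and 15, 13 and 8 counts with carmofur. After scaling, its carmofur libraries at 2.31, 2.26 and 1.96 CPM lay below the vehicle libraries at 2.70, 4.14 and 2.71, a difference of -0.50 (SE 0.394, 95% interval -1.34 to 0.34) that counts this low do not resolve. CERK, which makes ceramide 1-phosphate, was even across the libraries, at 39.2, 37.6 and 40.3 CPM in vehicle and 40.9, 43.1 and 37.3 with carmofur.

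Of the sphingosine kinases, SPHK2, found largely in the nucleus and mitochondria, was higher than the cytosolic SPHK1 in every vehicle library, at 13.7, 18.1 and 16.1 CPM and 75.7% ± 12 (SD, n = 3) of the counts of the pair. SPHK1 (ENSG00000176170, GRCh38 chromosome 17, 76376584 to 76387860), the form most often linked to S1P release, had the highest fold change of the members tested. It had 39, 8 and 29 counts in vehicle and 51, 77 and 30 with carmofur, or 7.53, 2.37 and 5.61 CPM against 7.84, 13.4 and 7.37. The groups overlapped, vehicle replicate 2 was the lowest and carmofur replicate 2 the highest, and the other 4 libraries lay between 5.61 and 7.84 CPM. The difference was 0.83 (SE 0.348, 95% interval 0.09 to 1.57; edgeR adjusted p = 0.999). It was 0.50 without carmofur replicate 2, 0.55 without vehicle replicate 2 and 1.19 without vehicle replicate 1. SPHK2 with carmofur was at 13.4, 14.3 and 17.2 CPM, overlapping vehicle.

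**Figure D2:**
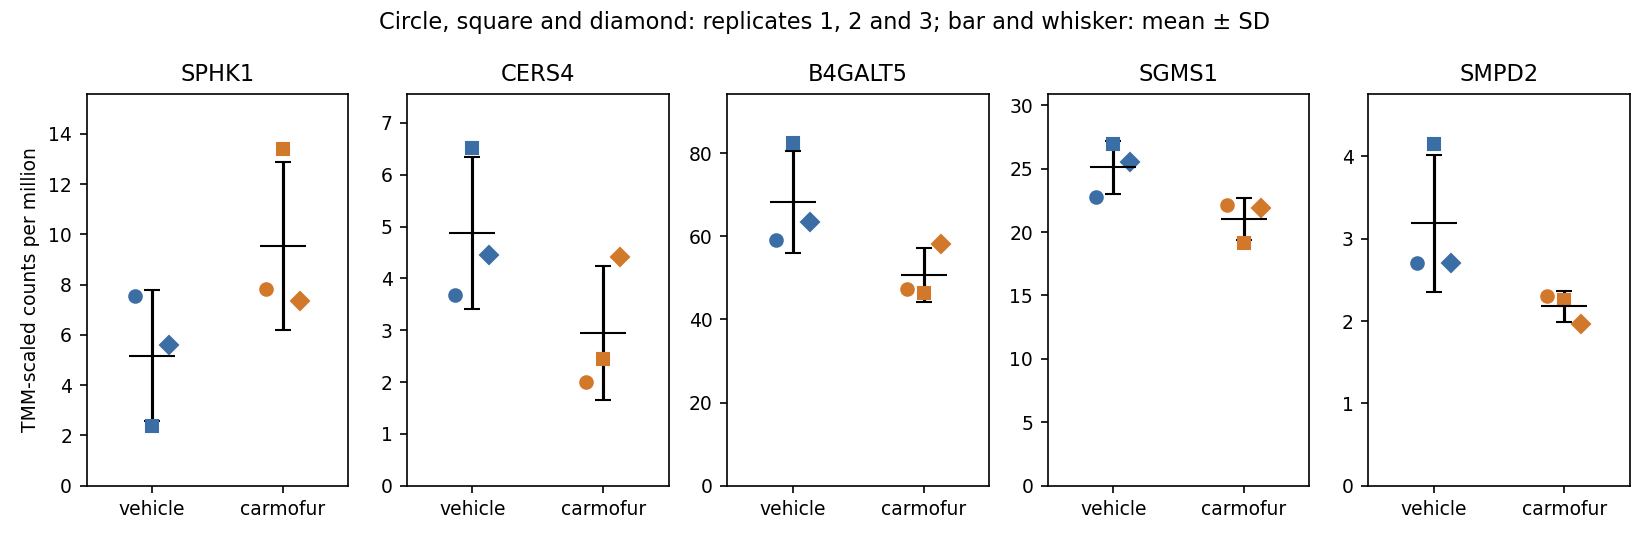
TMM-scaled CPM (linear axis from 0) in each U251P library for SPHK1, CERS4, B4GALT5, SGMS1 and SMPD2, with blue for vehicle and orange for carmofur, and a bar with whiskers for the mean and SD of 3 libraries. The 2 groups do not overlap for B4GALT5, SGMS1 and SMPD2 and overlap for SPHK1 and CERS4.

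S1P lyase, SGPL1, which removes S1P irreversibly, was at 38.4, 46.2 and 32.1 CPM in vehicle and 49.5, 34.6 and 44.9 with carmofur, a difference of 0.16 (SE 0.166) with overlap. The S1P phosphatase SGPP1 was at 17.0, 20.4 and 14.1 CPM in vehicle and 19.5, 16.2 and 20.1 with carmofur, and SGPP2 had 0, 0 and 2 counts in vehicle. Among the lipid phosphate phosphatases, which act on S1P at the cell surface, PLPP2 held 81.3% ± 4.49 (SD, n = 3) of the counts. PLPP2 was at 75.9, 66.9 and 89.0 CPM in vehicle and 81.0, 64.9 and 84.0 with carmofur, a difference of -0.02 (SE 0.133). PLPP1 followed at 15.1, 10.7 and 13.4 CPM in vehicle and 9.99, 13.2 and 7.86 with carmofur. PLPP3, with the largest standard error of the members tested (0.439), had 45, 6 and 22 counts in vehicle and 36, 26 and 11 with carmofur. The 3′ end of PLPP3 lies within AC119674.2 on the same strand, a gene that the count table does not hold. The processed pseudogene AC099789.1 overlaps PLPP3 on the same strand and had 357 counts over the 12 libraries. In both lines, reads could thus be shared between PLPP3 and these genes.

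Of the S1P receptors, S1PR3, which couples to several G protein classes, was the most abundant, at 17.4, 15.1 and 10.1 CPM in vehicle, and S1PR1, which couples to Gi, was at 6.18, 5.33 and 3.68. S1PR5 had 1, 0 and 3 counts in vehicle and the exporter SPNS2 had 1, 0 and 0. S1PR2 had no count, but it lies within DNMT1 on the same strand, so that reads from it could be given to DNMT1 or dropped. With carmofur, S1PR3 was at 12.6, 16.3 and 11.1 CPM and S1PR1 at 6.0, 8.69 and 4.91, both overlapping vehicle, with differences of -0.07 (SE 0.232) and 0.39 (SE 0.318). The share of receptor counts held by S1PR1 was 26.0%, 26.1% and 25.7% in vehicle and 32.0%, 34.2% and 30.3% with carmofur, without overlap. These shares rest on 66 to 146 receptor counts a library. Of the 37 isoform shares computed in 13 families, 3 did not overlap between treatments (S1PR1 higher, S1PR3 and SGMS2 lower). No such count was taken over all genes, so it has no background and cannot be read as an effect on the members. Some shares, such as those of DEGS1 and DEGS2, were at 100% or 0% in both treatments and could not separate. Shares within a pair of genes mirror each other. S1PR1 and S1PR3 held nearly all receptor counts, so that their shares are not separate observations. An exact permutation test of 3 libraries against 3 cannot give a two-sided p under 0.1. CERS3 and S1PR4, relatives that are not on the list and were looked up after the values were seen, had 0 counts in all 12 libraries.

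**Figure D3:**
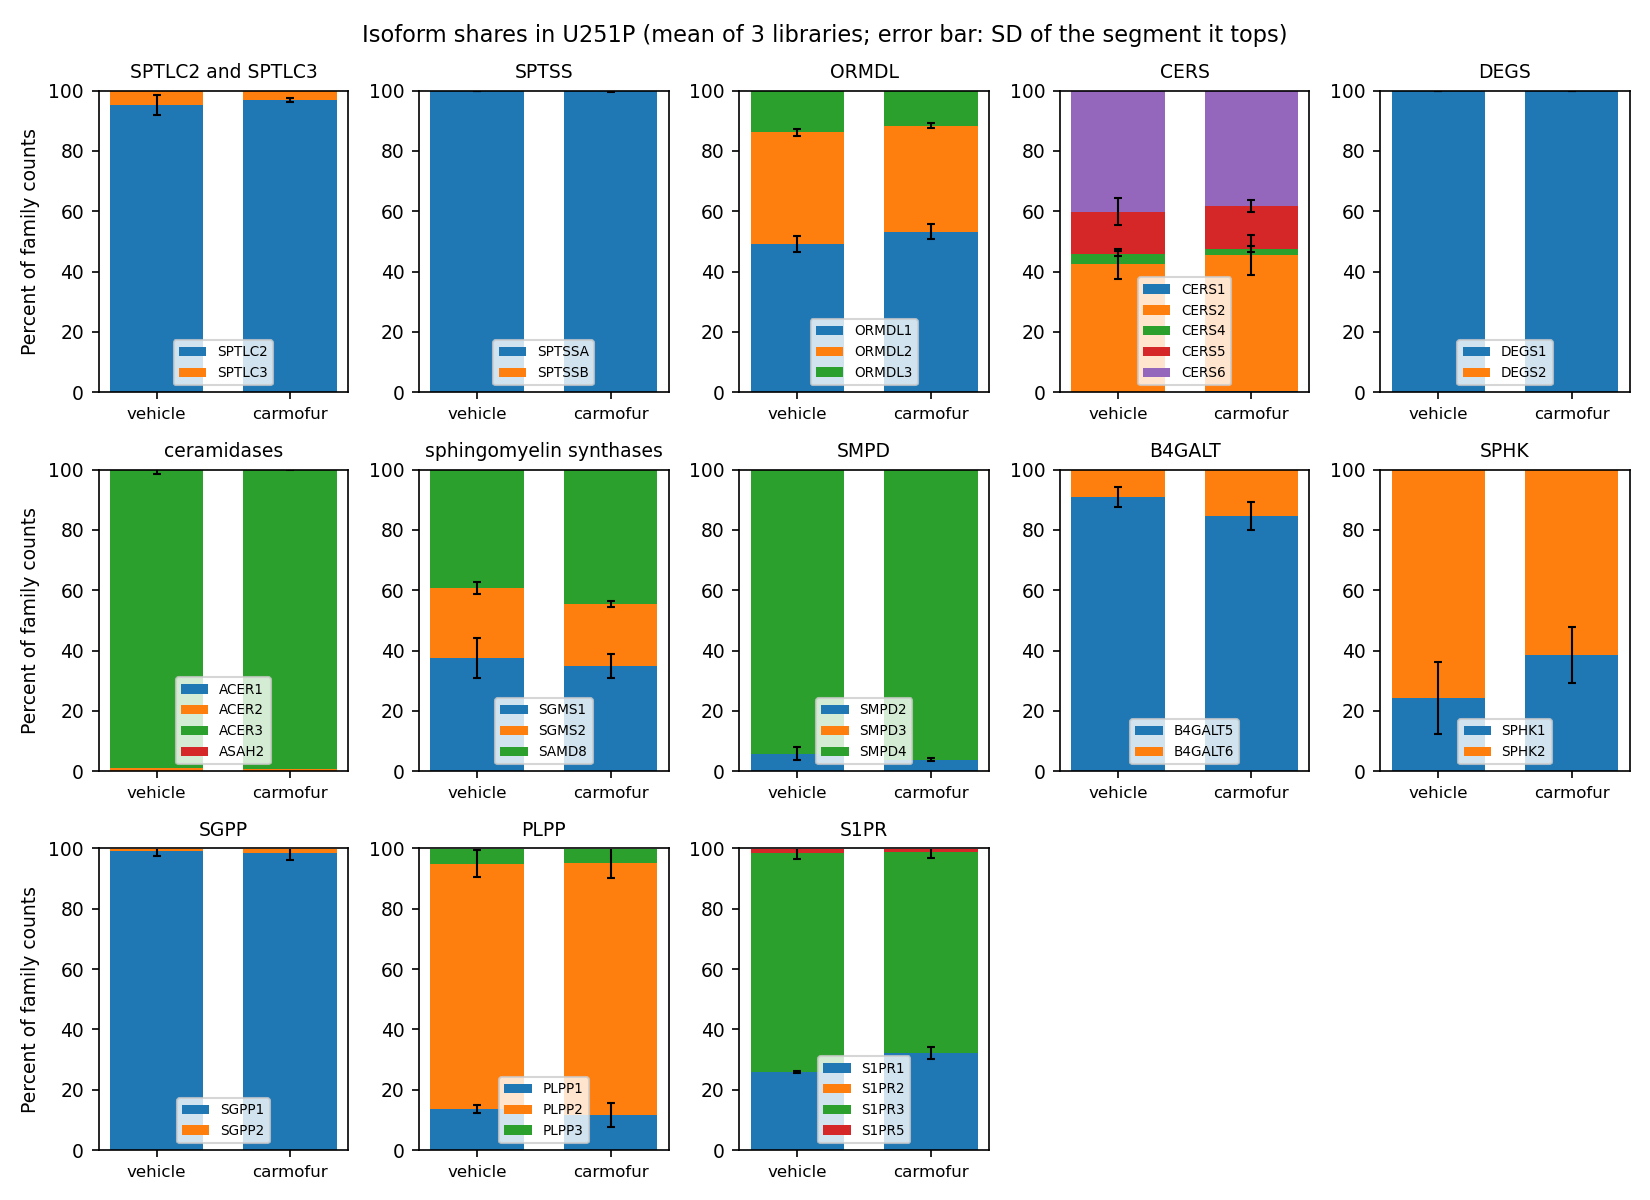
Share of a family's counts (percent, axis from 0 to 100) held by each isoform in U251P, as the mean of 3 vehicle and 3 carmofur libraries, with the SD of a segment at its top edge. Families such as DEGS, SPTSS and the ceramidases rest almost wholly on 1 gene in both treatments, and S1PR1 takes 25.9% of the receptor counts in vehicle and 32.2% with carmofur.

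Across the list, 33 genes passed the expression filter of the edgeR test and 0 had an adjusted p-value under 0.05, as in the whole table (0% of 11426 genes called). Unadjusted p-values under 0.05 were found for 2 members, B4GALT5 and SPHK1, which is 6.06% beside 3.52% of all genes tested, and DESeq2 also gave 0 members adjusted and 2 unadjusted. Vehicle and carmofur libraries were fully separated for 3 members (B4GALT5, SGMS1 and SMPD2, all lower with carmofur), or 9.09% beside 8.33% of all genes, a share near the background. With carmofur, 18 members (54.5%, beside 49.9% of all genes) had a higher and 15 a lower fitted level, and the median log2 fold change was 0.0050 beside -0.00075 over all genes. The difference exceeded the SD between replicates in 9 of 33 members. This count was not taken over all genes, so it has no background and cannot be read as an effect on the members. The 95% interval lay within 2-fold in either direction for 27 members and within 1.5-fold for 22, and it excluded 0 for 2. For the 27 members a change over 2-fold lay outside the interval, and for the 22 so did a change over 1.5-fold.

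**Figure D4:**
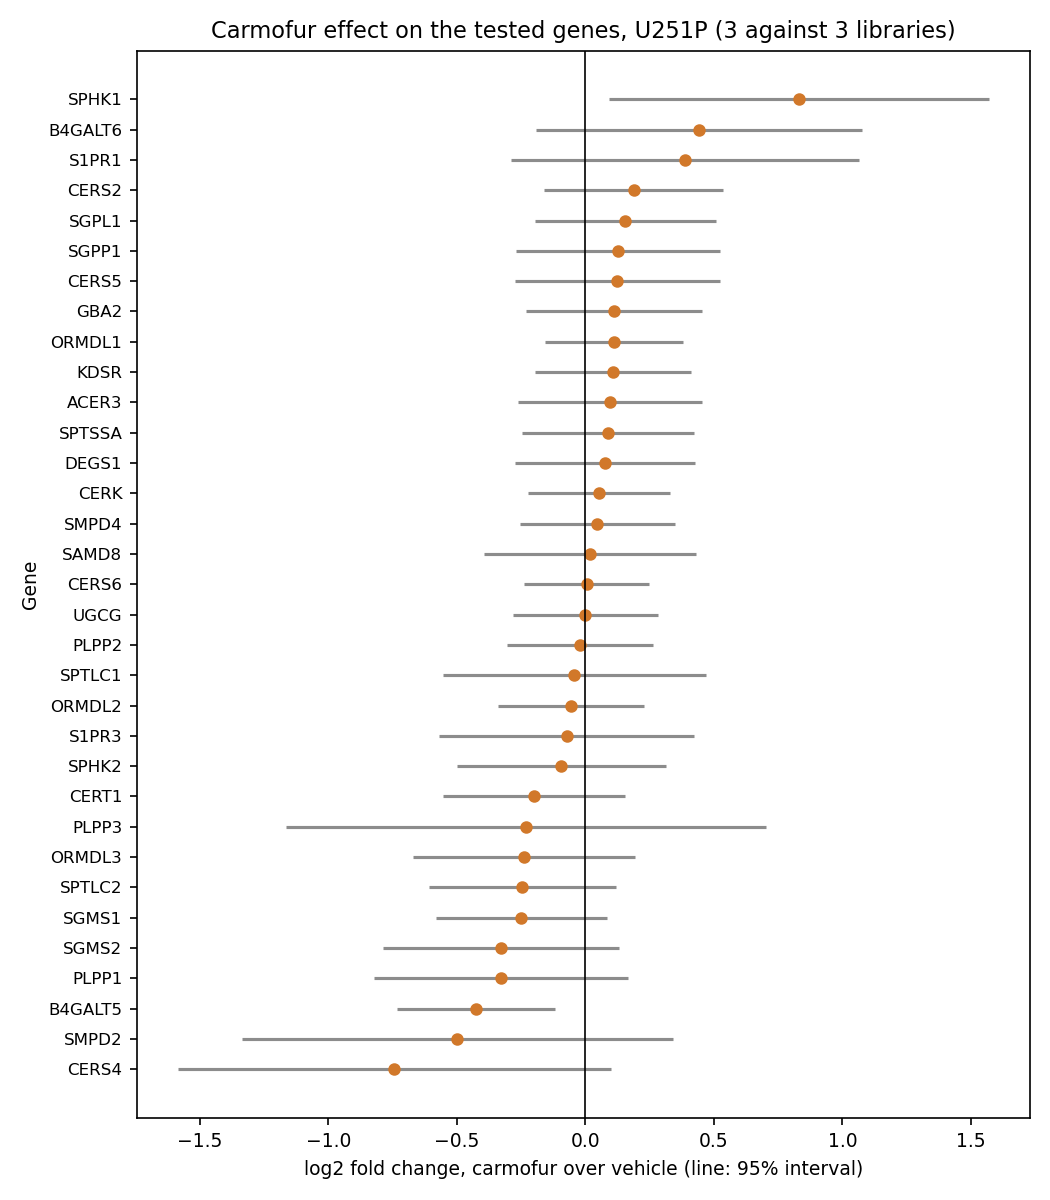
Log2 fold change of carmofur over vehicle (points) with 95% intervals (lines) for the 33 genes tested in U251P, ordered by fold change from CERS4 (-0.74) to SPHK1 (0.83). The intervals of B4GALT5 and SPHK1 lie on 1 side of 0 and those of the other 31 genes cover it.

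The study chose genes for its pathway analysis by DESeq2, requiring a base mean over 5, an unadjusted p below 0.2 and a fold change beyond 0.5 (log2) in either direction. By these criteria, 2 members were selected, SPHK1 (higher) and CERS4 (lower), which is 6.06% of the 33 that could be tested beside 3.26% of 12507 genes. Without the criterion on fold change B4GALT5 was selected too. The number moved between 1 and 4 when single libraries were left out, beside 253 to 570 of all genes. CERS4 was not selected without vehicle replicate 2, vehicle replicate 3, carmofur replicate 1 or carmofur replicate 2, and SPHK1 was not selected without carmofur replicate 2.

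Genes of neighboring pathways were examined as 4 further lists in U251P, and none of their genes was called. Of 14 lysosomal sphingolipid hydrolases and cofactors, 12 were tested, of which 4 were fitted higher and 8 lower. GM2A, the GM2 activator, was among those with the smallest p-values of that list, with a difference of -0.37 (SE 0.252). Of 12 genes that extend glycosphingolipids, 5 were tested (3 higher, 2 lower), led by the sialyltransferase ST3GAL1 with 0.27 (SE 0.117; edgeR adjusted p = 0.999). Of 17 genes that elongate or activate fatty acyl chains, 14 were tested (10 higher, 4 lower), led by ELOVL6, which extends C16 chains, with -0.28 (SE 0.112; edgeR adjusted p = 0.999). Of 14 genes of signaling through G proteins below the S1P receptors, all 14 were tested (4 higher, 10 lower), and GNAQ, a G protein alpha subunit, was among those with the smallest p-values, with -0.25 (SE 0.123).

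In U251T, where libraries were shallower, 21 of the 45 genes could be tested, and 9 had 0 counts in all 6 libraries. With carmofur, 3 members were higher at an edgeR adjusted p-value under 0.05, or 14.3% of those tested, beside 17.1% of 7204 genes (8.88% called higher), so that 3 calls among 21 members are near the share over all genes. Unadjusted p-values under 0.05 were found for 5 members, or 23.8% beside 29.9%. SPTLC1 had 108, 204 and 51 counts in vehicle and 142, 123 and 50 with carmofur. After scaling these were 82.0, 75.7 and 88.0 CPM against 144, 117 and 129, so that all carmofur libraries were above all vehicle libraries (log2 fold change 0.68, SE 0.178, adjusted p = 0.0118). The S1P phosphatase SGPP1 had 46.3, 29.3 and 51.8 CPM against 74.9, 74.1 and 64.4 (0.84, SE 0.244, adjusted p = 0.0235), again without overlap. PLPP3 had 88.8, 146 and 88.0 CPM against 149.9, 201 and 152 (0.61, SE 0.205, adjusted p = 0.0489), also without overlap. These with SGPL1 made 4 members without overlap between groups, or 19% beside 32.9% of all genes. SGPL1 had 20, 28 and 3 counts in vehicle and 20, 17 and 16 with carmofur and was not called (1.08, SE 0.426, adjusted p = 0.0917).

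The calls in U251T depended on single libraries. No member was called without carmofur replicate 1 (837 of 7551 genes), and 1 was called without carmofur replicate 2 (1128 of 7510 genes). SPTLC1 lost its call without carmofur replicate 1 (adjusted p = 0.0909). SGPP1 lost it with DESeq2 and without vehicle replicate 2, carmofur replicate 1 or carmofur replicate 2, and PLPP3 lost it in 9 of 13 alternatives. SGMS1 was not called (0.51, SE 0.187, adjusted p = 0.0692) but was without vehicle replicate 2 (0.82, adjusted p = 0.000626). Beside these, the fibroblast markers summed to 1957 to 2270 CPM in vehicle and 2596 to 2799 with carmofur in U251T, and all 4 glial markers tested were called, 2 lower and 2 higher. VIM and GFAP differed by -0.67 (adjusted p = 0.000493) and -0.96 (adjusted p = 0.0216), and SOX9 and CD44 by 0.55 (adjusted p = 0.0192) and 0.39 (adjusted p = 0.0422). The part of these markers in the calls was not tested. Among the fatty acyl genes, 2 of 11 tested were called, beside 17.1% of 7204 genes, a share near the background. These were HACD2 and ACSL3, which act in acyl chain elongation and activation. They fell by 0.90 (SE 0.192, edgeR adjusted p = 0.00301) and 0.71 (SE 0.171, adjusted p = 0.00704).

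A difference in the carmofur effect between the lines was tested with an interaction term, and 0 of 35 members were called, beside 4.28% of 13070 genes. At an unadjusted p-value under 0.05 there were 7 members, or 20% beside 15.1% of all genes, and DESeq2 gave 0 adjusted and 5 unadjusted. For SPTLC1 the effect in U251T was higher by 0.66 (SE 0.296, adjusted p = 0.259), for SGPP1 by 0.67 (SE 0.311, adjusted p = 0.284) and for SGMS1 by 0.69 (SE 0.286, adjusted p = 0.212). Without U251T vehicle replicate 2, SGMS1 was called (1.04, adjusted p = 0.00409). For PLPP3, the other member called in U251T, the effect was higher by 0.77 (SE 0.446, adjusted p = 0.449). ORMDL1, with the smallest p-value, was at 1.24 (SE 0.508, adjusted p = 0.205), on 7, 6 and 2 counts in U251T vehicle and 10, 10 and 2 with carmofur. The 2 of these 7 members that were fitted lower rest on few counts in U251T, ORMDL2 on 5, 5 and 1 in vehicle and 1, 0 and 0 with carmofur, and GBA2 on 5, 1 and 0 in vehicle and 0 in each carmofur library. A difference between the lines was thus not shown for the members called in U251T.

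The lines themselves differed in most genes, members or not. In vehicle, 31 of 33 members tested had an edgeR adjusted p-value under 0.05 (12 higher and 19 lower in U251T), or 93.9% beside 86.9% of 12047 genes, a share near the background. Of all genes 39.3% were called higher and 47.6% lower, and the median log2 difference was -1.60 beside -0.33 over all genes. On a scale common to both lines, PLPP2 was at 78.1, 65.8 and 94.7 CPM in U251P and had 1, 0 and 0 counts in U251T. SMPD4 was at 59.7, 44.6 and 60.1 CPM in U251P and had 1, 3 and 0 counts in U251T, and S1PR3 had 90, 51 and 52 counts in U251P and 0 in every U251T library. Several main isoforms of U251P were thus barely detected in U251T. In the other direction, the S1P exporter SPNS2 had 1, 0 and 0 counts in U251P and 43, 48 and 17 in U251T, and SGMS1 was at 23.5, 26.5 and 27.2 CPM in U251P and 194, 344 and 218 in U251T. PLPP3 was at 8.95, 1.75 and 4.53 CPM against 86.7, 145 and 86.1, and UGCG, the highest of the 45 by its mean in both lines, at 94.2, 81.0 and 75.4 against 305, 374 and 326. Since U251T also stood apart in mitochondrial, pseudogene and marker content, line and library properties cannot be told apart. With at least 10 counts required in every library, 11 members were tested and their median difference was 0.63, beside 0.011 over all genes. This filter removes members near 0 in U251T, such as PLPP2, SMPD4 and S1PR3, so that the value does not describe the whole list.

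**Figure D5:**
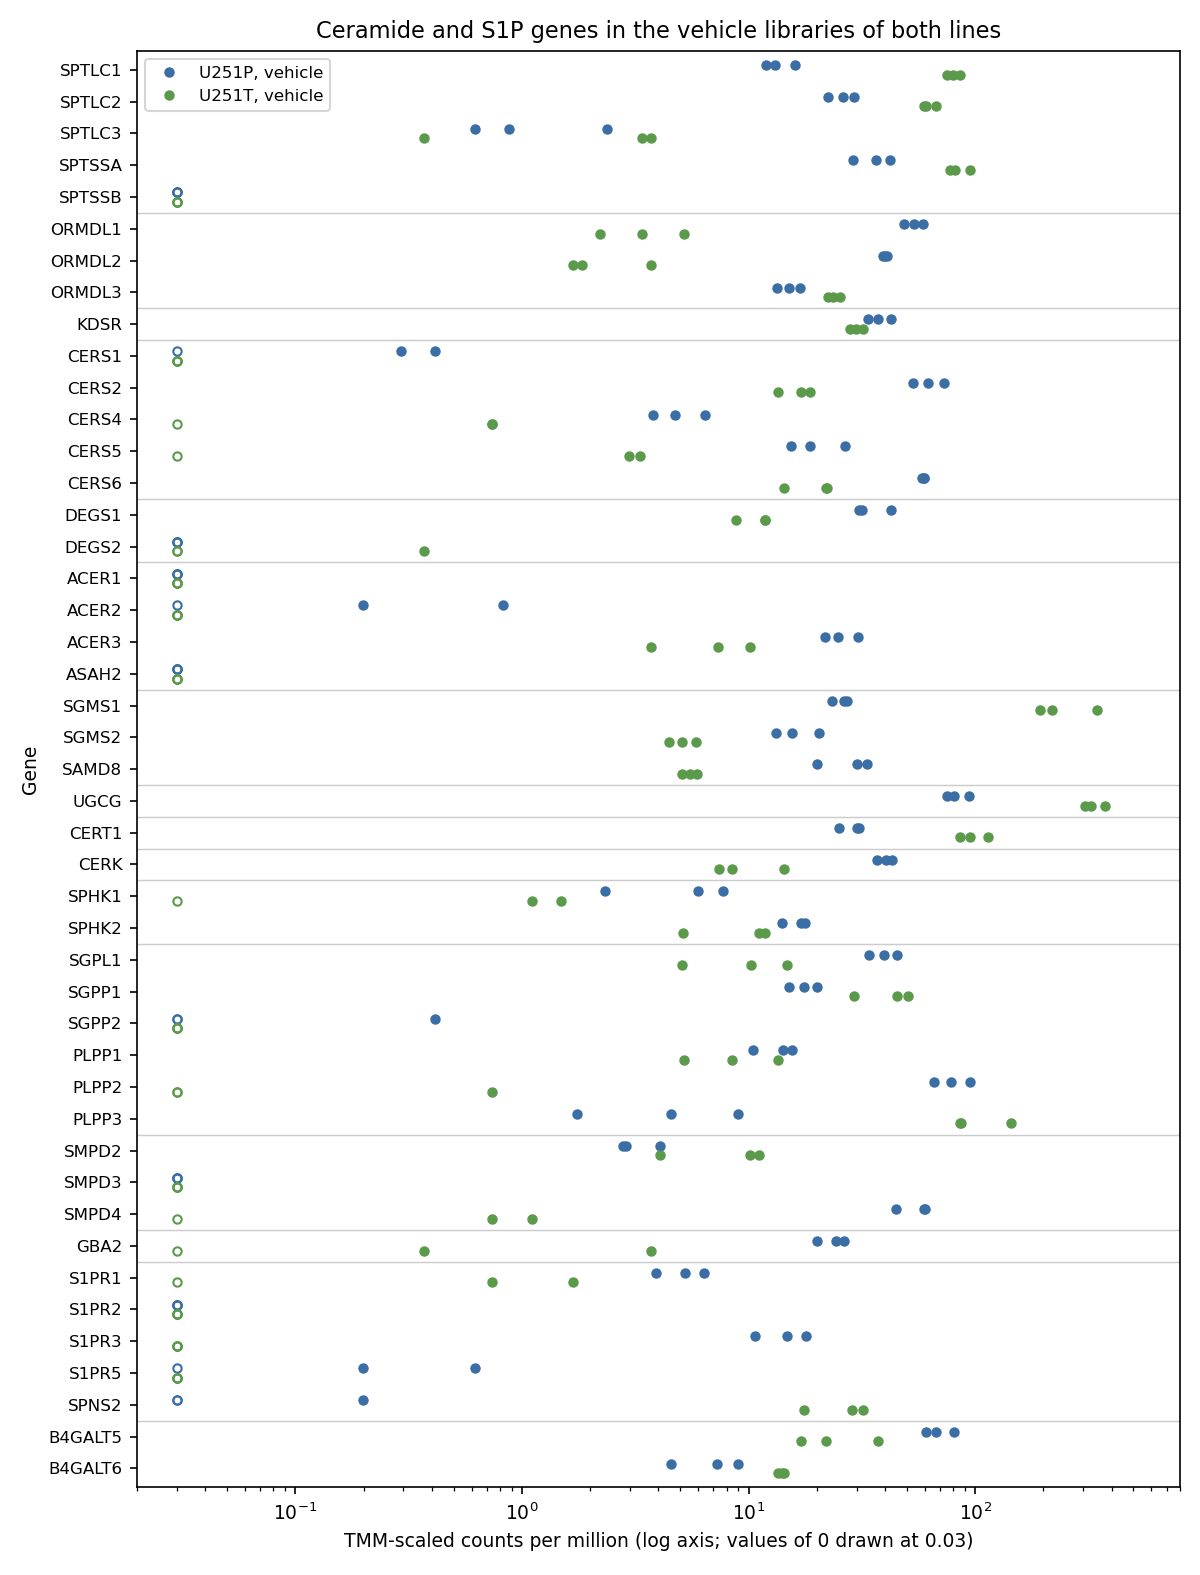
TMM-scaled CPM (log axis) of the 45 genes in the 3 vehicle libraries of U251P (blue) and the 3 of U251T (green) on a common scale, with open circles for values of 0. SGMS1, UGCG, PLPP3 and SPNS2 lie far higher in U251T, whereas PLPP2, SMPD4 and S1PR3 are at or near 0 there.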

How the data were processed

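The authors prepared QuantSeq 3′ libraries, read 75 bases from 1 end of each fragment and used the BlueBee pipeline of Lexogen for trimming and mapping. The genome build in the submitters' processing notes is hg38. The deposited values are the authors' whole-number read counts per Ensembl gene, without normalization. The annotation release, the use of strand and the handling of PCR copies are not given in the sources used here, so that detection floors cover counting error only, and overlapping genes cannot always be separated. Symbols and positions came from GENCODE release 29.

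Carmofur and vehicle were compared separately in each line with edgeR's quasi-likelihood test (version 4.0.16, R 4.3.3) with TMM factors, filterByExpr and Benjamini-Hochberg adjustment over all genes, at 0.05. Adjusted p-values are from edgeR unless another tool is named. SEs and 95% intervals came from the same fit and include the spread between libraries. The study used DESeq2 (version 1.42.0), which was run as an alternative and for the study's selection. The lines in vehicle and the interaction of line and carmofur were fitted likewise. Isoform shares are percentages of a family's counts per library and were not tested. The common biological coefficient of variation was 0.124 in U251P and 0.154 in U251T. CG counts are from RefSeq promoter windows. Replicates differed by more than sampling noise. The scripts were tested on simulated data.

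The members and lists were chosen with earlier results of these data known. Any member could be named with its level, and members passing an unadjusted or adjusted test, without overlap or most abundant in a family were given a fold change. Fold changes of the other tested members were added after the values were seen. Other pathway genes were named if called or if among the 2 smallest p-values of their list. Some genes named by this rule are not reported here. Alternatives were DESeq2, upper-quartile scaling, other count filters, a replicate block, an adjusted p-value of 0.1, 1 fit of all 12 libraries and leaving out each library in turn. Markers of other cell types (neuron, leukocyte, endothelial) were at most 33.0 summed CPM in any library. Figures were drawn with matplotlib (version 3.10.9, Python 3.11.15).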

Additional observations from a re-analysis of the deposited data

How the results depend on the processing

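In U251P no alternative called a member, with adjusted p-values of 0.552 or more for each member in every alternative run, and 19 genes of the whole table were called without a count filter. The expressed members numbered 27 to 33 in the alternatives run. Leaving out single libraries turned the sign of 13 differences on the log2 scale (12 members and ASAH1), none of them called: ACER3 -0.027 to 0.22, SPTLC1 -0.36 to 0.10, ORMDL2 -0.10 to 0.018, SMPD4 -0.076 to 0.15, PLPP2 -0.11 to 0.10, DEGS1 -0.019 to 0.25, UGCG -0.13 to 0.10, SAMD8 -0.20 to 0.18, PLPP3 -0.57 to 0.45, SPTSSA -0.075 to 0.22, CERS6 -0.031 to 0.040, S1PR3 -0.28 to 0.12 and ASAH1 -0.051 to 0.19. Members selected by the study's criteria were 1 to 4 when 1 library was left out, beside 253 to 570 of all genes. In U251T the members called were 0 to 3 when 1 library was left out, beside 837 to 1195 of all genes. They were 1 with DESeq2 (858 of 17843 genes) and 5 at an adjusted p-value of 0.1 (1693 of 7204 genes). The interaction called 0 or 1 member when 1 library was left out, beside 367 to 721 of all genes. Between the lines, a minimum of 10 counts in every library left 9 calls among 11 members (3737 of 4823 genes). It moved ORMDL3 to -0.0089 and the median over all genes to 0.011, and the reason was not tested. Upper-quartile scaling and DESeq2 moved the median over all genes to -0.40 and -0.12. Members called were then 32 of 33 (10467 of 12047 genes) and 29 of 40 (12181 of 25294 genes).

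Same-numbered vehicle and carmofur libraries did not deviate together in every pair (r of 0.21, -0.04 and 0.27 in U251P and 0.08, 0.34 and 0.08 in U251T). With 3 libraries a group, these values cannot tell whether the numbers pair the samples. The main fits took no pairing. With a replicate block, 0 members were called in U251P (1 of all genes) and 0 in the interaction (792 beside 560). In U251T 5 were called (2078 of all genes beside 1231), SGMS1 and SGPL1 being added. Between the lines 31 were called (10270 of all genes beside 10474). The block left 1 member by the study's criteria (278 of 12507 genes), and UGCG was at -0.0070. Depth limits members under about 20 counts a library, and most members in U251T.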
